A study of Mus musculus with 6 samples.

Results

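The respiratory chain and ATP synthase of the inner mitochondrial membrane were examined through 94 transcripts of the 12830 genes in the deposited table. They were chosen by a rule on gene symbols, with earlier results of these data known. They comprised 81 genes read from nuclear DNA and 13 read from mitochondrial DNA. By complex, the nuclear genes numbered 36 for complex I, 4 for complex II, 9 for complex III, 14 for complex IV and 18 for complex V. The mitochondrial genes numbered 7, 1, 3 and 2 for complexes I, III, IV and V, and complex II has none. Ndufa4 carries a complex I symbol but was counted with complex IV, where its protein is known to sit. The nuclear genes included Atp5if1, an inhibitor of ATP synthase, and Cox5b-ps, a pseudogene by its symbol that GENCODE M21 lists as protein-coding. The identifier listed under Ndufb1 is a bidirectional promoter lncRNA in that annotation, and it was counted with complex I by its symbol. Ndufab1, Cox7a2l and the Ndufaf assembly factors were outside the choice.

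RNA came from primary bone marrow stromal cells, the adherent cells of marrow that can form osteoblasts and adipocytes, after 2 days under osteogenic induction. The cKO group had 3 libraries from Prx1;Rras2 f/f mice, in which the Prx1 promoter acts in limb mesenchyme to delete floxed Rras2. The FF group had 3 libraries from Rras2 f/f mice, which carry the floxed alleles alone. All mice were 8 weeks old. Blood-lineage cells of the marrow lie outside the cells in which the Prx1 promoter is known to act. Whether each library of a group stands for its own animal is not in the labels, so the p-values measure only how these samples vary, and that variation may be technical.

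Complexes I to IV pass electrons from NADH and succinate to oxygen, and complexes I, III and IV pump protons as they do so. Complex V, the ATP synthase, uses the returning protons to make ATP. Mitochondrial DNA encodes a hydrophobic core of complexes I, III, IV and V, and the nucleus encodes every other subunit, so each of these complexes needs products of both genomes. Osteoblast formation from stromal cells is known to draw on this pathway together with glycolysis.

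The libraries held between 31934714 and 37561452 counts each. Rras2, the targeted gene, had 26.7, 29.0 and 26.8 CPM (counts scaled to library size with TMM factors) in cKO, against 49.7, 50.1 and 44.7 CPM in FF. It fell in cKO by 0.81 on the log2 scale (SE 0.0683), and its adjusted p in edgeR was 1.08e-05. The stroma markers, all 8 of them measured, summed to between 15558 and 17692 CPM in cKO and between 20151 and 21147 CPM in FF, with 2 called higher and 3 lower. The macrophage markers, all 12 measured, summed to between 25823 and 26597 CPM in cKO and between 23738 and 25101 CPM in FF, with 2 called higher and 0 lower. The 7 neutrophil markers summed to between 539 and 721 CPM in cKO and between 622 and 819 CPM in FF, and 4 measured markers of B and plasma cells to between 295 and 357 CPM in cKO and between 181 and 198 CPM in FF, with 3 of the 4 called higher. The 6 erythroid and 6 skeletal muscle markers were not measured here. White adipocyte markers, 3 measured of 4, had 60.9 to 64.0 CPM in cKO and 48.8 to 52.0 CPM in FF, with 1 called higher, and Dio2, the 1 measured of 4 brown adipocyte markers, had 1.79 to 2.29 CPM in cKO and 1.29 to 2.08 CPM in FF. The cultures thus held macrophage RNA beside stromal RNA, with smaller marker sums for neutrophils and for B and plasma cells. The respiratory chain values are a mixture over all cells present. In such bulk RNA, fewer cells of a type and less RNA per cell cannot be told apart, and the part of these markers in the results below was not tested.

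Respiratory chain transcripts had closely similar levels in cKO and FF, with a slight excess in cKO for the nuclear genes. None of the 94 passed the quasi-likelihood F test of edgeR at a Benjamini-Hochberg adjusted p under 0.05, where 4.84% of all genes did. The members called were 0 higher, beside 2.1% of all genes, and 0 lower, beside 2.74%. Without adjustment, 21 of the 94 had a p below 0.05, all nuclear and all higher in cKO, which is 22.3% of the members beside 8.54% of all genes, and 0 were lower, beside 8.81%. The DESeq2 test called 1 member, Atp5if1, beside 6.61% of all genes, and limma-voom called 0, beside 3.38%. The log2 fold change was above 0 for 85 of the 94, against 50.2% of all genes. Its median was 0.11 over the 81 nuclear members and 0.023 over the 13 mitochondrial ones, against 0.00058 over all genes. The members' values ran from -0.09 to 0.34.

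The intervals around these values were narrow. The 95% interval of the fold change, taken gene by gene without adjustment, lay within a 1.5-fold change either way for 91 of the 94. The other 3 were Cox5b-ps, Cox6a2 and Cox6b2, the members of lowest CPM. All 13 mitochondrial transcripts had intervals within a 1.2-fold change, as did 40 of the 81 nuclear ones. The widest interval of the set belonged to Cox6b2, from 0.694 to 1.75-fold.

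**Figure D1:**
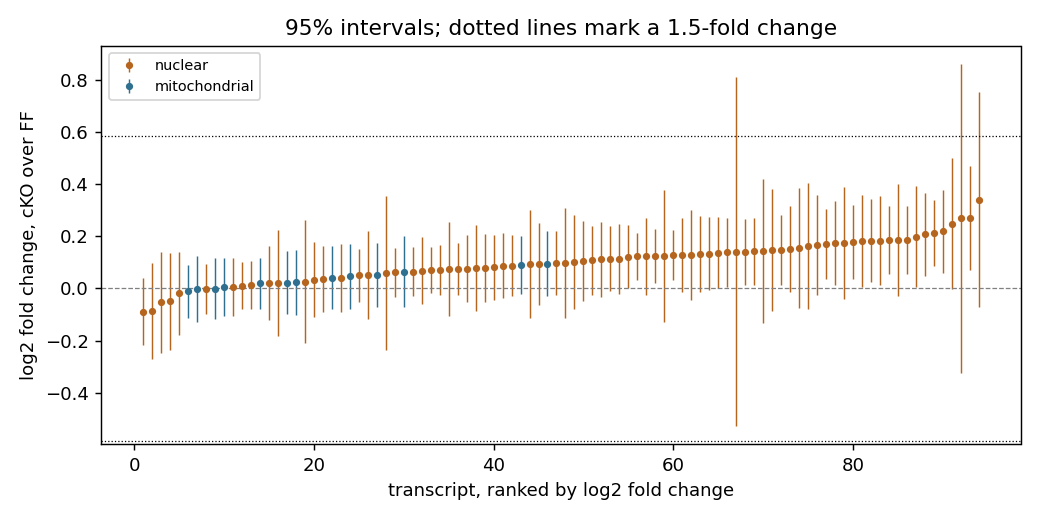
Each point is the log2 fold change of cKO over FF for 1 of the 94 transcripts, in rank order, with its 95% interval. Most points lie just above 0, the 13 mitochondrial ones lie near the middle and lower end, and 3 low-count nuclear transcripts have intervals that cross the dotted line of a 1.5-fold change.

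Mitochondrial DNA is read from both strands as long transcripts that are then cut into the separate messages. All 13 of its messages were measured. Its ribosomal and transfer RNAs were not analysed here. All 13 are on chromosome M of GRCm38, 12 on the plus strand and mt-Nd6 on the minus strand. Some of the messages overlap, so reads from the shared bases belong to both. The coding sequences of mt-Atp8 and mt-Atp6 share 43 bases, chrM:7927-7969 on the plus strand, shown in GENCODE's transcript sequence because they limit how well the pair can be told apart, with the start codon of mt-Atp6 in capitals.
mt-Atp8 and mt-Atp6: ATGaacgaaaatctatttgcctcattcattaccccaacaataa
The last base of that stretch ends the stop codon of mt-Atp8. mt-Nd4l and mt-Nd4 share 7 bases, from 10167 to 10173. mt-Nd5 and mt-Nd6 overlap on opposite strands, from 13552 to 13565. The way the authors assigned reads in such overlaps, and the strand setting, were not stated in any source at hand. For mt-Nd6, reads of the opposite strand can therefore not be told apart. Reads from nuclear copies of mitochondrial DNA are also possible in any of the 13.

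The mitochondrial messages spanned a wide range of levels, with the same order of the extremes in both groups. Levels are given as FPKM, which scales counts by gene length. mt-Co1, the catalytic subunit of complex IV, was highest, at 5017 ± 223 FPKM in cKO and 5065 ± 218 FPKM in FF (SD, n = 3 each). mt-Nd3, a complex I subunit, was lowest, at 232 ± 18.2 FPKM in cKO and 219 ± 4.54 FPKM in FF (SD, n = 3 each). Between these lay mt-Atp6, mt-Atp8 and mt-Co2, close together with spreads that overlap, then mt-Co3, mt-Cytb, mt-Nd1 and mt-Nd4, and then mt-Nd5, mt-Nd6, mt-Nd2 and mt-Nd4l. The median over the 13, taken over all 6 libraries, was 1299 FPKM, against 54.8 FPKM over the 80 nuclear members other than the pseudogene. Every mitochondrial message but mt-Nd3 was above the highest nuclear member, Atp5f1b, which had 257 ± 5.12 FPKM in cKO and 257 ± 2.39 FPKM in FF (SD, n = 3 each).

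**Figure D2:**
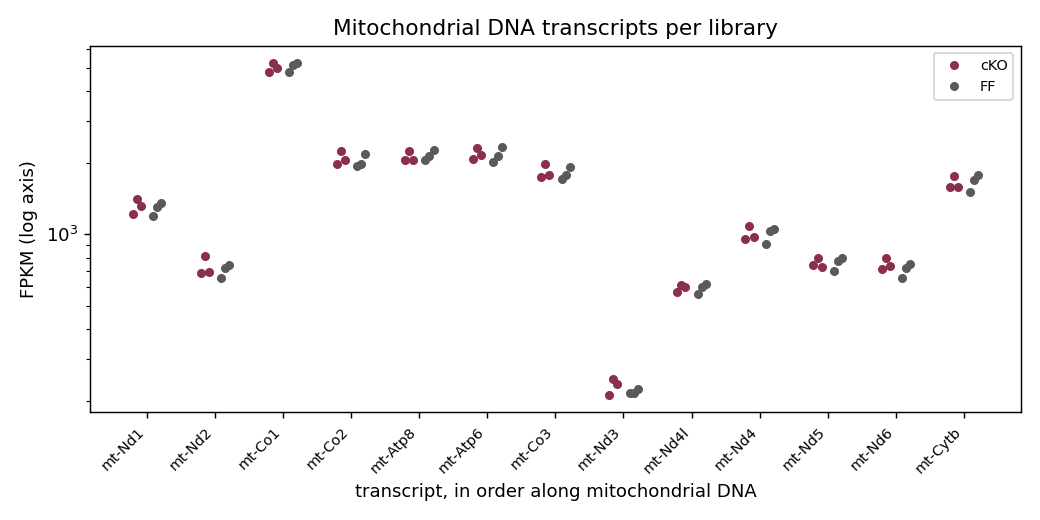
FPKM of the 13 mitochondrial DNA messages in each library on a log axis, in their order along mitochondrial DNA, with cKO libraries left of FF libraries. Levels differ widely between messages, with mt-Co1 highest at means of 5017 FPKM in cKO and 5065 FPKM in FF and mt-Nd3 lowest, while the cKO and FF points of each message overlap.

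With all 6 libraries and TMM scaling, 0 of these 13 messages passed the test, where 4.84% of all genes did. Their CPM overlapped between the groups in all 13, where it did not in 22.5% of all genes. The smallest edgeR adjusted p was 0.40, for mt-Nd6. The message of mt-Co1 had 8155, 8921 and 8545 CPM in cKO, against 8295, 8598 and 8736 CPM in FF, a log2 fold change of -0.00042 (SE 0.0542). The single complex III message, mt-Cytb, had 1991, 2211 and 2009 CPM in cKO, against 1922, 2091 and 2209 CPM in FF. For both genes the libraries of a group differed among themselves by more than the groups did. In complex I, all 7 messages had log2 fold changes above 0, from 0.0058 for mt-Nd5 to 0.095 for mt-Nd3. Without cKO replicate 1 mt-Nd3 passed as higher, where 4.17% of all genes did. With the length trend also removed mt-Nd4l and mt-Atp8 passed as lower, where 4.24% of all genes did. In complex V, mt-Atp6, which forms part of the proton path, had 0.022, and its small partner mt-Atp8 had -0.010.

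Ratios between messages of overlapping genes were also compared. The FPKM of mt-Nd6 over that of mt-Nd5 was 0.963, 1.0003 and 1.01 in cKO, against 0.934, 0.932 and 0.938 in FF. The groups did not overlap, and the exact permutation test gave a two-sided p of 0.1, the smallest that 3 libraries against 3 allow, and 0.3 when adjusted over the 3 ratios compared. These messages differ in length, 519 bases for mt-Nd6 and 1824 for mt-Nd5. Their log2 fold changes were 0.090 and 0.0058 with TMM scaling, but -0.039 and -0.0054 with the length trend removed. The part of length in this ratio was not tested. mt-Atp8 over mt-Atp6 was 0.974 ± 0.0211 in cKO and 0.997 ± 0.0260 in FF (SD, n = 3 each; exact permutation p = 0.3). mt-Nd4l over mt-Nd4 was 0.594 ± 0.0276 in cKO and 0.595 ± 0.0177 in FF (SD, n = 3 each; exact permutation p = 1.0).

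Summed over members, nuclear and mitochondrial transcripts differed little between the groups. The 81 nuclear members summed to 5632, 5927 and 6048 CPM in cKO, against 5671, 5394 and 5523 CPM in FF. In these TMM-scaled sums cKO replicates 2 and 3 were above every FF library, and cKO replicate 1 was below FF replicate 1. The 13 mitochondrial members summed to 20810, 23126 and 21630 CPM in cKO, against 20698, 21593 and 22498 CPM in FF. Here the groups were interleaved, and cKO replicate 2 was highest. The mitochondrial sum was 3.72 ± 0.165 times the nuclear one in cKO and 3.91 ± 0.227 times in FF (SD, n = 3 each). The mitochondrial messages took 2.19 ± 0.121% of the listed counts in cKO and 2.16 ± 0.111% in FF, and the nuclear members 0.587 ± 0.0209% in cKO and 0.553 ± 0.00791% in FF (SD, n = 3 each). Per library, the nuclear shares were 0.563, 0.594 and 0.603% in cKO, against 0.559, 0.544 and 0.555% in FF. By these shares of unscaled counts every cKO library, replicate 1 included, was above every FF library. No p is given for these sums, since the members were chosen with earlier results of these data known.

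**Figure D3:**
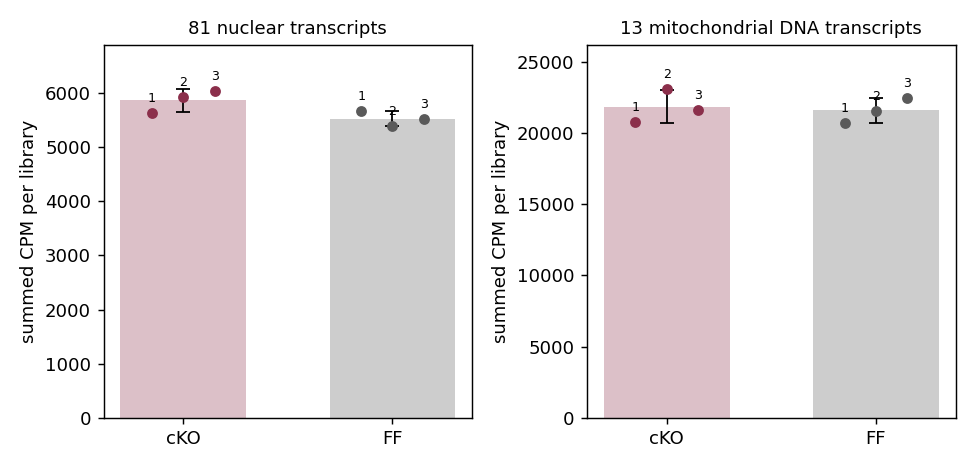
Summed CPM of the 81 nuclear and the 13 mitochondrial DNA transcripts. Points are libraries, numbered by replicate, bars are means over 3 libraries and error bars are SD. For the nuclear sum cKO replicates 2 and 3 lie above all FF libraries and cKO replicate 1 lies among them, and for the mitochondrial sum the groups are interleaved.

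Complex I takes electrons from NADH. Its 36 nuclear members had a median log2 fold change of 0.10, with 32 above 0 and 4 below, and 0 passed. In 6 of the 36 the cKO libraries were all above the FF libraries, and in 0 all below, against 11.3% and 11.2% of all genes. The catalytic core showed values on both sides of 0. Ndufs3, a core subunit, had 41.0, 43.0 and 39.8 CPM in cKO, against 36.6, 36.8 and 35.5 CPM in FF. Its log2 fold change was 0.19 (SE 0.0611, edgeR adjusted p = 0.11). Ndufv1, which binds NADH, had -0.09, and the iron-sulfur subunits Ndufs8 and Ndufs1 had -0.05 and 0.050.

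The largest values of complex I belonged to Ndufa3 and Ndufa7, accessory subunits that surround that core. Ndufa3 had 20.95, 22.9 and 25.7 CPM in cKO, against 21.1, 18.5 and 18.0 CPM in FF, a log2 fold change of 0.27 (SE 0.0927, edgeR adjusted p = 0.13). FF replicate 1 lay above cKO replicate 1, so the groups overlapped. Ndufa7 had 37.1, 41.0 and 44.1 CPM in cKO, against 36.8, 32.8 and 35.3 CPM in FF, where every cKO library was higher (log2 fold change 0.22, edgeR adjusted p = 0.12). Ndufc2, among the accessory subunits of highest FPKM, had 57.9 ± 2.40 FPKM in cKO and 54.0 ± 2.49 FPKM in FF (SD, n = 3 each). Ndufa11 had a log2 fold change of -0.09.

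Complex II, succinate dehydrogenase, belongs both to the citric acid cycle and to the chain, and is nuclear throughout. Its 4 genes had log2 fold changes between 0.061 and 0.12 and 0 passed. Sdha, the flavin subunit that oxidises succinate, had 289, 269 and 271 CPM in cKO, against 270, 265 and 258 CPM in FF. Sdhb, the iron-sulfur subunit, had 78.6, 77.6 and 86.6 CPM in cKO, against 78.2, 72.7 and 72.2 CPM in FF (log2 fold change 0.12, edgeR adjusted p = 0.29). The membrane anchors Sdhc and Sdhd had every cKO library above every FF library, at log2 fold changes of 0.061 and 0.074. These were 2 of the 4 genes, with 0 below, against 11.3% and 11.2% of all genes. By the median of this complex cKO replicate 1 was the highest of its group, as it was for Sdha and Sdhc but not for Sdhb and Sdhd. The median over the 4 genes stood 0.089, 0.061 and 0.051 above the FF mean (log2) in cKO replicates 1, 2 and 3.

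Complex III passes electrons from quinol to cytochrome c. Of its 9 nuclear members 8 had log2 fold changes above 0, the median was 0.088 and 0 passed. Uqcrb and Uqcrh, small subunits, had the largest, 0.18 each (edgeR adjusted p = 0.27 and 0.24). Uqcrh had 67.6, 77.9 and 80.1 CPM in cKO, against 67.4, 59.8 and 71.4 CPM in FF, so cKO replicate 1 lay within the FF range. The core protein gene Uqcrc1 had 133, 133 and 129 CPM in cKO, against 137, 127 and 132 CPM in FF, a log2 fold change of -0.0023. Cyc1, the cytochrome c1 gene, and Uqcrfs1, the Rieske iron-sulfur protein gene, had 0.034 and 0.11. The groups overlapped in all 9, where they did not in 22.5% of all genes.

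Complex IV, cytochrome c oxidase, hands the electrons to oxygen. All 14 of its nuclear members had log2 fold changes above 0, with a median of 0.14, and 0 passed. In 2 of the 14 every cKO library was above every FF library, and in 0 below, against 11.3% and 11.2% of all genes. Cox4i1, the widely expressed form of subunit 4, had 198, 202 and 214 CPM in cKO, against 189, 182 and 191 CPM in FF, with every cKO library higher. Its log2 fold change was 0.13 (SE 0.0447, edgeR adjusted p = 0.14). Ndufa4 had 89.8, 99.3 and 107 CPM in cKO, against 88.3, 83.5 and 88.4 CPM in FF, also without overlap (log2 fold change 0.19, edgeR adjusted p = 0.11). Cox5b-ps had the largest value of all members, 0.34 (SE 0.192), at a low level with groups that overlapped. It resembles Cox5b, which had 0.11, and reads that match both could make the pseudogene's value uncertain.

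Several complex IV subunits have forms that differ by tissue. The widely expressed Cox6a1 had 139 ± 9.95 FPKM in cKO and 132 ± 4.80 FPKM in FF, while Cox6a2, the heart and muscle form, had 2.01 ± 0.495 FPKM in cKO and 1.69 ± 0.198 FPKM in FF (SD, n = 3 each). Likewise Cox6b1 had 119 ± 8.20 FPKM in cKO and 114 ± 3.51 FPKM in FF, and Cox6b2, known from testis, had 2.52 ± 0.459 FPKM in cKO and 2.42 ± 0.901 FPKM in FF (SD, n = 3 each). The ubiquitous forms thus led in both groups. Cox7a2 and Cox8a had log2 fold changes of 0.021 and 0.13. The counterparts Cox4i2, Cox7a1, Cox8b and Ndufa4l2 were not analysed here.

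Complex V makes ATP. Its 18 nuclear members had a median log2 fold change of 0.13, with 17 above 0, and 0 passed. In 6 of them every cKO library was above every FF library, and in 0 below, against 11.3% and 11.2% of all genes. Its catalytic head had near-equal levels in both groups. Atp5f1a, the alpha subunit gene, had 517, 516 and 528 CPM in cKO, against 526, 511 and 512 CPM in FF. Atp5f1b, the beta subunit gene, had 550, 544 and 536 CPM in cKO, against 554, 533 and 528 CPM in FF. Their log2 fold changes were 0.011 and 0.013, with 95% intervals that both spanned 0.948 to 1.07-fold. The central stalk gene Atp5f1c had 168, 177 and 175 CPM in cKO, against 158, 159 and 161 CPM in FF, where the groups did not overlap (log2 fold change 0.12, edgeR adjusted p = 0.12).

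Atp5if1 came closest to the threshold of all 94 members. Its protein, IF1, blocks the synthase from running backwards and consuming ATP. It had 76.3, 81.4 and 87.9 CPM in cKO, against 73.0, 67.0 and 72.1 CPM in FF, with every cKO library higher. The log2 fold change was 0.21 (SE 0.0597), a 1.16-fold difference with a 95% interval from 1.06 to 1.27 (edgeR adjusted p = 0.0591). In the authors' deposited table it had an adjusted p of 0.0331, the only one of the 94 below 0.05. The DESeq2 test made here gave it 0.0331 too. Both called 848 genes from the same counts, so the 2 values are not independent. Among small membrane subunits, Atp5me had a log2 fold change of 0.25 (SE 0.117), and Atp5pd, of the side stalk, had 0.14. Atp5mc1, Atp5mc2 and Atp5mc3 encode the same mature ring subunit, and had -0.019, 0.13 and 0.14. For Atp5mc1 the deposited units differed, with 37.2 ± 7.97 FPKM in cKO and 27.4 ± 1.71 FPKM in FF (SD, n = 3 each) but 35.3 ± 1.77 CPM in cKO and 35.7 ± 3.13 CPM in FF, and the length behind its FPKM varied between libraries.

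**Figure D4:**
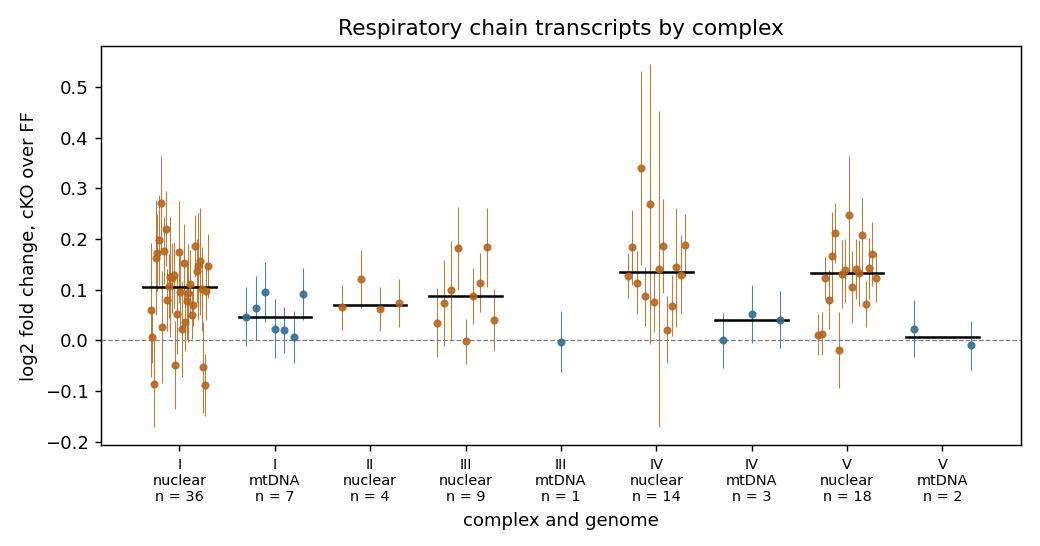
Log2 fold change of cKO over FF for each of the 94 transcripts with its standard error, by complex and genome, with black lines at the medians of groups of more than 1 gene. Nuclear medians lie between 0.069 for complex II and 0.14 for complex IV, and the mitochondrial DNA medians lie between 0.0061 and 0.046.

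The excess in nuclear members was present in cKO replicates 2 and 3. Relative to the FF mean, the median log2 difference over the 81 nuclear members was 0.019, 0.12 and 0.18 in cKO replicates 1, 2 and 3, against 0.037, -0.052 and 0.0042 in FF replicates 1, 2 and 3. With TMM scaling, cKO replicate 1 therefore lay inside the FF range. Without cKO replicate 1, edgeR called 18 members higher, 17 of them nuclear, and 0 lower, beside 4.92% of all genes. The 18 are 19.1% of the members beside 4.17% of all genes called higher in that fit and 9.09% called in either direction. They included Ndufa4, Atp5mc3, Atp5if1, Ndufa7, Uqcrh, Cox8a, Cox4i1 and Ndufa3, with adjusted p-values between 0.0054 and 0.0327, and the mitochondrial mt-Nd3 with 0.0490. Without any other 1 library, 0 members were called. Those fits called between 268 and 379 of the 12830 genes, against 1166 without cKO replicate 1.

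A like excess was present in short genes outside the respiratory chain. The length behind each gene's FPKM was recovered from its counts and FPKM, and its median was 745 bases for nuclear members, 784 bases for mitochondrial ones and 2978 bases for all genes. Among genes under 600 bases, the median log2 fold change was 0.16 for 25 nuclear members and 0.16 for 139 genes outside the members. From 600 to 1000 bases it was 0.12 for 29 nuclear members and 0.082 for 579 other genes. From 1000 to 2000 bases it was 0.084 for 22 nuclear members and 0.019 for 2699 other genes, and from 2000 to 3000 bases 0.050 for 5 nuclear members and -0.0027 for 2974 other genes. The libraries that carried it were the same ones. Short genes outside the members stood 0.034, 0.19 and 0.25 above the FF mean in cKO replicates 1, 2 and 3. The 13 mitochondrial messages had medians of 0.055 under 600 bases (4 messages), 0.044 from 600 to 1000 bases (4) and 0.0058 from 1000 to 2000 bases (5). The shortest of them, mt-Atp8 at 204 bases and mt-Nd4l at 297 bases, had -0.010 and 0.019.

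When the trend with length was removed from each library, a step chosen after the data were seen, the nuclear median was 0.030, against -0.0025 for all genes. Then 60 of the 81 nuclear members were above 0, with 0 members called beside 4.79% of all genes. The medians of the nuclear members of complexes I to V were then 0.030, 0.068, 0.0088, 0.017 and 0.030. Complex II, of the longest median length among the complexes, had nearly the same value as before, while complexes I, III, IV and V lost most of theirs. Atp5if1 had 0.085 on the log2 scale in that fit, at an adjusted p of 0.415 in edgeR. The 13 mitochondrial messages took a median of -0.048, and 1 of them was above 0. With cKO replicate 1 also left out, 0 members were called higher and 2 lower, beside 7.47% of all genes called, 3.23% higher and 4.24% lower. These were mt-Nd4l at -0.23 and mt-Atp8 at -0.32 on the log2 scale, with adjusted p-values of 0.0095 and 0.0432 in edgeR. In the same libraries without the offset, mt-Nd4l had 0.049 and mt-Atp8 0.012, and neither was called. Both negative values thus appeared only once the length trend was removed.

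**Figure D5:**
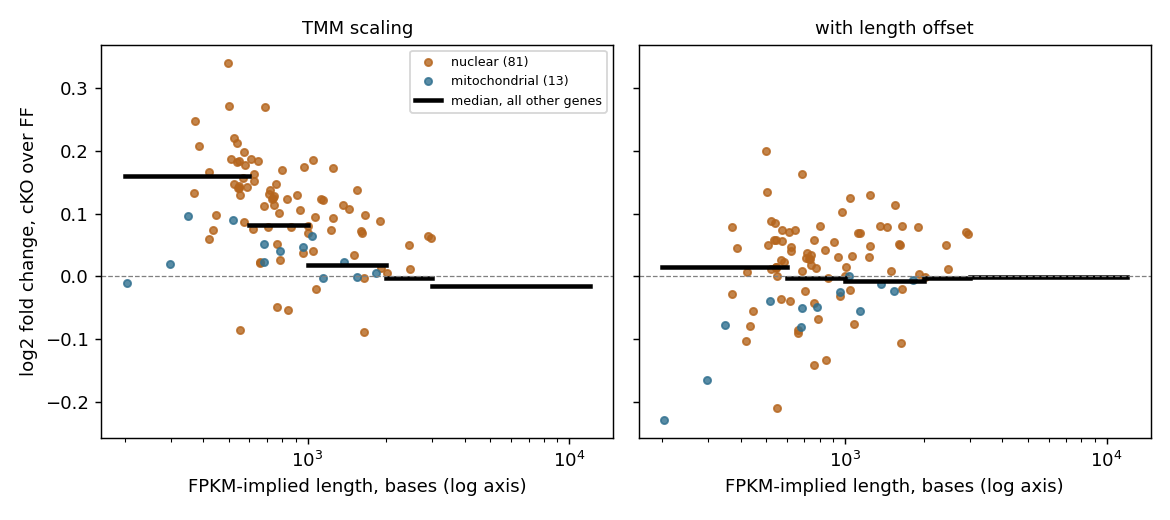
Log2 fold change of cKO over FF against FPKM-implied length on a log axis, for nuclear and mitochondrial members, with TMM scaling on the left and with the length trend of each library removed on the right. Black bars are the medians of all other genes in 5 length ranges, the outer ones drawn to the axis ends; on the left they fall from 0.16 for the shortest to -0.015 for the longest, and on the right they lie near 0.

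Genes that build and supply the chain were compared with the same test, in which 2.1% of all genes were called higher and 2.74% lower. Of 49 assembly factors measured from a list of 50, 1 rose and 0 fell, with a median of 0.045 (0.019 with the length trend removed). The riser was Higd2a, which helps to assemble complex IV and its supercomplexes. It had 31.0, 30.9 and 30.9 CPM in cKO, against 26.2, 25.5 and 26.3 CPM in FF, 0.25 on the log2 scale, at an adjusted p of 0.0342 in edgeR. Its call ended without any 1 library other than cKO replicate 1 (adjusted p from 0.0950 to 0.173), while its log2 fold change stayed between 0.24 and 0.26, and with the length trend removed (0.298). Of 78 mitochondrial ribosome genes 1 rose and 0 fell, with a median of 0.077 (0.027 with the length trend removed). It was Mrps6, a small-subunit protein gene, with 30.8, 35.8 and 37.8 CPM in cKO, against 29.5, 26.7 and 27.1 CPM in FF (log2 fold change 0.32, edgeR adjusted p = 0.0309). Its call ended without cKO replicate 2 or 3 or FF replicate 2 or 3 (adjusted p from 0.119 to 0.166; log2 fold change from 0.26 to 0.41 with any 1 library left out), with the length trend removed (0.0582) and in limma-voom (0.0937).

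Of 31 genes for the upkeep and expression of mitochondrial DNA 0 rose and 1 fell, with a median of 0.0083. Elac2, a nuclease that trims the ends of transfer RNAs, had 23.3, 22.3 and 23.7 CPM in cKO, against 27.5, 27.1 and 28.0 CPM in FF (log2 fold change -0.25, edgeR adjusted p = 0.0471). The groups did not overlap, but the call ended without any 1 library other than cKO replicate 1 (adjusted p from 0.110 to 0.161; log2 fold change from -0.27 to -0.23 with any 1 library left out), under library totals alone (0.0508) and in limma-voom (0.0585). Tfam, which packages mitochondrial DNA and starts its transcription, had 35.4, 32.1 and 33.1 CPM in cKO, against 29.3, 31.2 and 33.9 CPM in FF. Polrmt, the mitochondrial RNA polymerase, had -0.16 on the log2 scale, at an adjusted p of 0.35 in edgeR. Among 10 measured regulators of mitochondrial content, 23 genes of pyruvate entry and the citric acid cycle, 18 of electron carriers and 16 of membrane channels and import, 0 passed, and their medians were 0.058, 0.026, 0.059 and 0.055. Ppargc1a was not analysed here.

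Nuclear respiratory genes are known targets of the factors NRF1, GABP and YY1, and their promoters were searched for simple forms of these motifs. RefSeq windows of GRCm38.p6, from 250 bases before to 50 after a start site, were found for 63 of the 81 nuclear members, 68 windows in all. RefSeq and GENCODE can place a start differently, and 55 of the 68 windows held the gene start of GENCODE M21. Of the other 13, the Atp5if1 window lay 1706 bases upstream of that start. The NRF1 form, GCGCA, then any base, then GCGC, was in 27.9% of them, against 4.60% of all 32851 windows. The ETS form CCGGAAG, which GABP can bind, was in 23.5% against 8.86%, and the YY1 form AAGATGG in 14.7% against 6.34%. Both strands were searched, and hits of different motifs overlapped in 0 of the members' windows. The 18 members with an NRF1 form had a median log2 fold change of 0.13, and the 45 without one 0.11. For the ETS form the medians were 0.14 for 16 members and 0.11 for 47, and for the YY1 form 0.12 for 10 and 0.11 for 53. The windows below belong to the nuclear members of smallest p that have a single window, one that holds the GENCODE start, with motif matches in capitals. They are shown because members of similar values hold different motifs.
Ndufa4: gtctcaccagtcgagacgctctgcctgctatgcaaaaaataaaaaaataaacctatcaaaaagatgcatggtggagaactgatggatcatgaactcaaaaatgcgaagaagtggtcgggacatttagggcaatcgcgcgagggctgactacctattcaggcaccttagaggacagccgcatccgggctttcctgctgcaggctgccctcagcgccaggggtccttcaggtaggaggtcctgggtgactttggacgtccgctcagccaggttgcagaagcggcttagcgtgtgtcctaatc
Ndufs3: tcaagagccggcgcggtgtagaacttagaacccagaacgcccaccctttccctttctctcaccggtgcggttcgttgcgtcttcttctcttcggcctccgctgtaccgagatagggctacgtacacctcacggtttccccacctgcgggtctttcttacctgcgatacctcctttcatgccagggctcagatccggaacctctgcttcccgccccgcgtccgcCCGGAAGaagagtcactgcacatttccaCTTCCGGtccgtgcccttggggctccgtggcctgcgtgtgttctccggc
Ndufa3: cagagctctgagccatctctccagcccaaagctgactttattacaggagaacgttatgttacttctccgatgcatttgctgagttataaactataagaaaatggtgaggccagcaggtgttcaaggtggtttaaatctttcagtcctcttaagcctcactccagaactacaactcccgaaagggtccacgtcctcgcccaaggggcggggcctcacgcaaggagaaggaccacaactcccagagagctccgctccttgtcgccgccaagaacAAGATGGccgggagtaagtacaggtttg
Ndufa6: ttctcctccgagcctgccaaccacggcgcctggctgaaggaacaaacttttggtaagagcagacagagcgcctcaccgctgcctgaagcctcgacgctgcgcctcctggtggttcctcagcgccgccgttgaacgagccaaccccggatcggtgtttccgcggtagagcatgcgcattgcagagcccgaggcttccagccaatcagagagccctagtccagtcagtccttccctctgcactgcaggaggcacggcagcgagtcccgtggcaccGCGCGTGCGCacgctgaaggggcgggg
Those of Ndufa4, Ndufs3 and Ndufa6 lie at chr6:11907401-11907700, chr2:90904672-90904971 and chr15:82354242-82354541 on the minus strand, and that of Ndufa3 lies at chr7:3617123-3617422 on the plus strand. Ndufs3 holds 2 ETS forms, Ndufa3 holds 1 YY1 form, Ndufa6 holds 1 NRF1 form and Ndufa4 holds none of them. A match describes these letters only.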

How the data were processed

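RNA sequencing of 6 libraries was analysed, 3 cKO and 3 FF. The gene counts are those the authors deposited, unnormalized, and the FPKM values are theirs too, per the file headers. The authors' deposited table also gives log2 fold changes with a p-value and adjusted p-value. Reads were placed on mm10, per the submitters' processing notes. No aligner, counter, strand setting or rule for overlaps is given in the sources used here. Libraries were made with a stranded mRNA kit, per the labels' protocols.

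Counts of all 12830 genes went into edgeR 4.0.16 under R 4.3.3 (TMM, filterByExpr, which removed 0 genes, robust quasi-likelihood F test, no covariates), with Benjamini-Hochberg adjusted p below 0.05 as a call. The standard error is the coefficient over the square root of F. Members' mean counts were at least 49 per library. Gene positions are from GENCODE M21. Alternatives covered scaling, filters, DESeq2 1.42.0, limma-voom 3.58.1, a block on replicate number, removal of each library and removal of mitochondrial genes. Length was taken as counts over FPKM, scaled to the annotated mt-Co1, and varied by under 5% over libraries for 78 of 94 members. Its loess trend (span 0.5) in each library served as an offset. The test was checked on simulated data.

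The members and lists were chosen with earlier results of these data known. Genes named were all mitochondrial members, in each complex the nuclear members of highest FPKM and of largest change, tissue forms, Atp5if1 and the called genes of the other lists. Other members were named to describe a complex after their values were seen. The values of 1 gene under this rule are not reported here. Figures were drawn with matplotlib 3.10.9.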

Additional observations from a re-analysis of the deposited data

How the results depend on the processing

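Each result was recomputed under up to 17 alternatives, and genes called over the whole table numbered 621 as reported. Members called stayed at 0 under the other scalings, the other count filters, limma-voom, the length offset and removal of mitochondrial genes, while DESeq2 called 1, nuclear and higher. Same-numbered libraries did not deviate together (correlations -0.040, 0.099 and -0.099, none best with its own number), so the numbers were not taken as pairs; with the replicate block 669 genes and 0 members were called, and the calls of Higd2a, Elac2 and Mrps6 ended (adjusted p 0.0505, 0.0628 and 0.0536). With 1 library left out, genes called ran from 268 to 1166 (379 at most without any library other than cKO replicate 1), nuclear members called from 0 to 17, mitochondrial members called from 0 to 1 and members called higher from 0 to 18, each highest without cKO replicate 1. With the length offset and without cKO replicate 1, 958 genes were called, with 2 mitochondrial members, both lower. Both length alternatives were chosen after the data were seen.

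Under the length offset the median log2 fold change moved to 0.030 for all nuclear members, 0.030 for complex I nuclear members, 0.0088 for complex III nuclear members, 0.017 for complex IV nuclear members, -0.048 for complex IV mitochondrial members, 0.030 for complex V nuclear members and -0.15 for complex V mitochondrial members. With cKO replicate 1 also left out it was 0.033 for all nuclear members, 0.025 for complex I nuclear members, 0.00042 for complex III nuclear members, -0.054 for complex IV mitochondrial members, 0.037 for complex V nuclear members and -0.21 for complex V mitochondrial members. The log2 fold change of 24 of the 94 members turned sign under the length offset, 15 nuclear and 9 mitochondrial. For the 12 of them chosen to be named it was -0.039 for mt-Nd6, -0.077 for mt-Nd3, -0.051 for mt-Co2, -0.025 for mt-Nd1, -0.048 for mt-Co3, -0.080 for mt-Atp6, -0.011 for mt-Nd4, -0.16 for mt-Nd4l, -0.0054 for mt-Nd5, -0.036 for Cox6a1, -0.039 for Cox6b1 and -0.085 for Cox7a2. The other 12, all nuclear, took values from -0.10 to -0.00020. With cKO replicate 1 also left out, named genes that turned sign took -0.068 for mt-Nd6, -0.093 for mt-Nd3, -0.057 for mt-Co2, -0.0032 for mt-Nd1, -0.054 for mt-Co3, -0.092 for mt-Atp6, -0.23 for mt-Nd4l, 0.00019 for mt-Co1, -0.0065 for Ndufc2, -0.034 for Cox6a1, -0.0056 for Atp5f1b, -0.032 for Cox6b1 and -0.088 for Cox7a2. Under library totals alone mt-Co1 took 8.83e-06. With 1 library left out, named genes that turned sign ranged over -0.015 to 0.11 for mt-Nd2, -0.0029 to 0.10 for mt-Nd1, -0.014 to 0.082 for mt-Co3, -0.018 to 0.074 for mt-Atp6, -0.033 to 0.059 for mt-Nd4, -0.0071 to 0.049 for mt-Nd4l, -0.050 to 0.019 for mt-Atp8, -0.034 to 0.039 for mt-Nd5, -0.057 to 0.045 for mt-Cytb, -0.033 to 0.032 for mt-Co1, -0.027 to 0.024 for Uqcrc1, -0.00020 to 0.032 for Atp5f1b, -0.14 to 0.36 for Cox6b2, -0.015 to 0.069 for Cox7a2 and -0.092 to 0.021 for Atp5mc1. Apart from the offset's own removal of the length trend, the cause of these changes was not tested. Low counts limit Cox5b-ps, Cox6a2 and Cox6b2 most, and having 3 libraries a group limits every test.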
